A study of Mus musculus with 11 samples.

Results

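The genes described here are 8 receptors through which hematopoietic stem cells (HSC) sense cytokines and their bone marrow niche (Kit, Flt3, Cxcr4, Csf3r, Csf2rb, Csf2ra, Il6st and Tgfbr1) and 1 ligand, Flt3l. They were chosen by symbol, as 9 of the 37991 genes counted, and every one of them was matched to 1 gene and passed the filter on low counts in every comparison. The libraries were made from 1000-cell aliquots of HSC sorted from the bone marrow of C57BL/6 mice aged 8 weeks, 4 from controls, 4 from NA10hd mice and 3 from NV mice. NA10hd mice carry LSL-NA10hd, a NUP98-HOXA10HD fusion knocked into ROSA26 in embryonic stem cells behind a loxP-flanked stop cassette, and NV mice carry a conditional NrasG12D allele of the same kind beside a wild-type Nras. In both, Vav-Cre, which acts in blood-forming cells and also in endothelium, removes the stop cassette. The labels name the controls wild type, while the methods call them littermates, and littermates in other assays of the study carried the unrecombined NA10hd allele without Cre. Which of these holds for the sequenced controls was not given. The cells had been gated as lineage-, CD48-, c-Kit+, Sca1+, CD135- and CD150+. Since c-Kit is the protein of Kit and CD135 that of Flt3, the sort itself selected on the proteins of 2 of the 9 genes.

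Each of these receptors joins an outside signal to the survival, division, homing or rest of HSC. Kit, a receptor tyrosine kinase bound by stem cell factor, maintains HSC, whereas Flt3, a kinase of the same family, marks multipotent progenitors that have left the stem cell pool and responds to Flt3l. Cxcr4 binds the niche chemokine Cxcl12 and holds HSC in the marrow, and Tgfbr1, the type I receptor of TGF-beta, signals through Smad proteins towards quiescence. Csf3r (for G-CSF), Csf2ra with Csf2rb (for GM-CSF) and Il6st (gp130, shared by interleukin 6 and its relatives) signal through Jak kinases and Stat proteins and are best known for driving myeloid cell production and emergency hematopoiesis.

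Totals ranged from 5464815 to 14283008 counts per library with a median of 10639180. All 8 HSC markers, among them Procr, Mecom and Hlf, were detected in every group, and summed lymphoid markers did not exceed 4.29 CPM (counts scaled to a common library size, with TMM factors over all 11 libraries). Summed myeloid markers were at 376 to 555.5 CPM, with Lyz2 at means of 467.6 to 507.3 CPM in the 3 groups and Ly6g and Mpo at or near 0, and stromal markers reached 25.8 CPM. Replicates differed beyond counting noise, with chi-square values of 6.65 to 62.3 per degree of freedom between libraries of a group. The study calls the replicates biological, but the labels do not say whether they came from separate animals, so p-values measure the spread between these libraries, which may be technical. Nras, Hoxa10 and Nup98 averaged 83.9, 39.7 and 16.5 CPM in control, 95.9, 57.1 and 17.6 CPM in NA10hd and 112, 29.9 and 14.2 CPM in NV HSC. None of these was called between any groups, and gene counts do not separate the fusion or the mutant allele from the endogenous genes, so they do not check the genotypes. Xist, made from the inactive X chromosome, and Y-linked genes were counted together in all NV libraries and in control replicates 2 and 3. Control replicates 1 and 4 and NA10hd replicates 1 to 3 held Y-linked counts with 0 Xist counts, and NA10hd replicate 4 held Xist counts with 0 Y-linked counts. NA10hd and NV therefore share no such combination, and in their comparison genotype and this mix cannot be told apart. In bulk samples like these, fewer cells that make a transcript and less of it per cell cannot be told apart.

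Scaled by exon length, Kit stood far above the other genes. In control HSC it averaged 53.9 ± 8.82 CPM per kilobase of exon (SD, n = 4), and its lowest library, at 41.8, lay above every library of every other member. Csf2ra followed at 12.4 ± 2.61, Csf3r at 12.1 ± 2.71, Il6st at 8.11 ± 1.67 and Tgfbr1 at 7.51 ± 1.03 CPM per kilobase, each with a range that overlapped its neighbour's in this order. Below a gap, Csf2rb averaged 4.93 ± 1.41, Cxcr4 3.47 ± 3.29, Flt3l 2.95 ± 0.566 and Flt3 1.70 ± 1.09 CPM per kilobase, again with overlapping neighbours. In NA10hd HSC, Csf2rb stood at 9.22 ± 2.91 CPM per kilobase (n = 4), ahead of Il6st, Csf3r, Cxcr4, Flt3l and Tgfbr1, although its range overlapped those of all 5. In NV HSC (n = 3), Il6st at 3.89 ± 1.08 and Csf2rb at 3.13 ± 0.764 CPM per kilobase came after Tgfbr1 and Flt3l. Flt3 was last in all 3 groups, in cells sorted for absence of its protein.

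**Figure D1:**
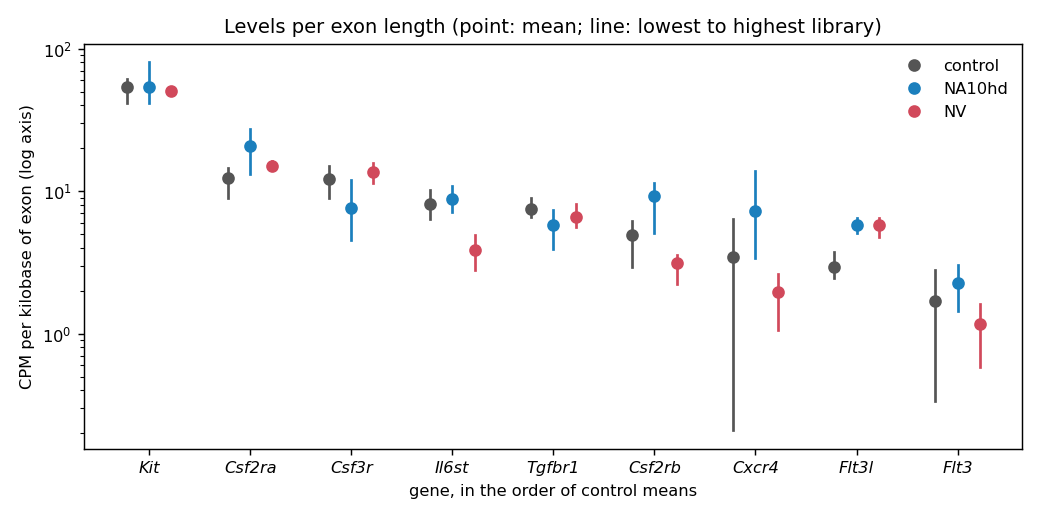
Mean level of each gene in CPM per kilobase of exon (log axis) in control, NA10hd and NV HSC, with lines from the lowest to the highest library. Kit lies above all others in every group, and the Il6st line of NV HSC, from 2.78 to 4.94, lies below the control line, from 6.33 to 10.3.

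Differences between groups were tested with edgeR's quasi-likelihood test over all genes that passed the filter, and a gene was called at a Benjamini-Hochberg adjusted p under 0.05 with a fold change above 1.5. Between NA10hd and control HSC, 0 of the 9 members were called, beside 0.00766% of the 13060 genes tested. DESeq2 called 1 member there (Flt3l), beside 238 of the 12378 genes it tested, and limma-voom 0. At an unadjusted p under 0.05 there were 4 members (Flt3l, Csf2rb and Csf2ra higher in NA10hd, Csf3r lower), against 11.9% of all genes. The libraries of 1 member (Flt3l) did not overlap between these groups, against 7.83% of all genes. Between NV and control HSC, 2 members were called, Flt3l upward and Il6st downward, beside 4.76% of 13462 genes. With Csf2rb, 3 members had an unadjusted p under 0.05 (19.5% of all genes), and the 2 called members were also those without overlap (18.9% of all genes). Between NA10hd and NV HSC, 2 members were called (Csf2rb and Il6st, both higher in NA10hd), beside 5.09% of 13461 genes. There, 4 members had an unadjusted p under 0.05 (19.5% of all genes), and 3 did not overlap (21.0% of all genes), namely Cxcr4, Il6st and Csf2rb. The median log2 fold change over the 9 members was 0.43 for NA10hd against control, -0.19 for NV against control and 0.45 for NA10hd against NV, beside 0.02, -0.01 and 0.01 over all genes tested. Both mutant groups were compared with the same 4 control libraries, so these comparisons are not independent.

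**Figure D2:**
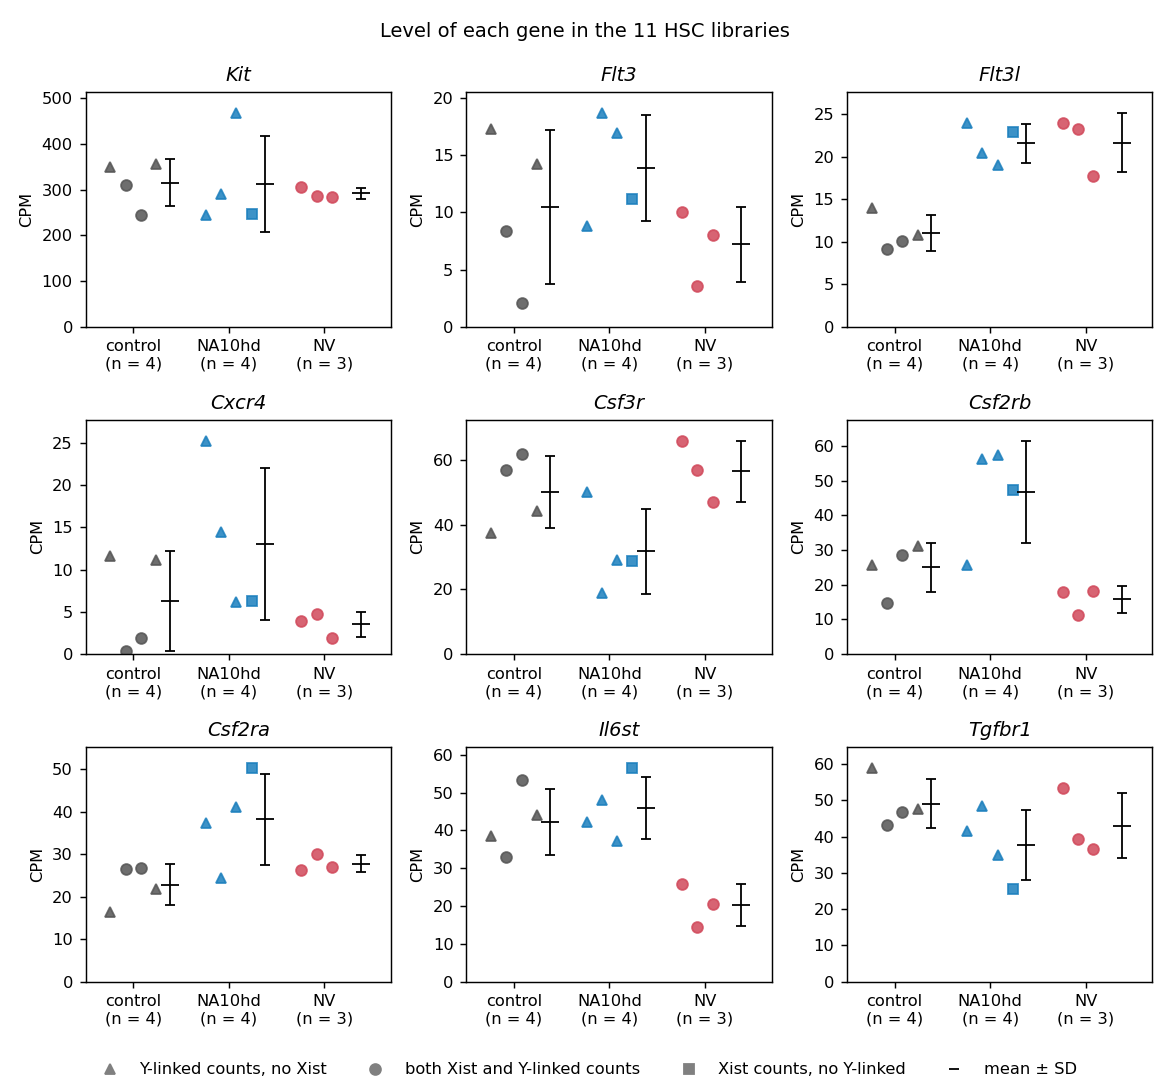
Level of each of the 9 genes in CPM in every library of control, NA10hd and NV HSC, with the mean ± SD beside the points and the point shape giving the combination of Xist and Y-linked counts. Flt3l lies at 9.09 to 13.9 CPM in control and at 17.7 to 24.0 CPM in both mutant groups, and Cxcr4 in control splits by point shape into 0.379 and 1.91 against 11.2 and 11.6 CPM.

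Flt3l, the ligand of Flt3, was the one member whose libraries in both mutant groups all lay above those of control. Its libraries held 13.9, 9.09, 10.04 and 10.8 CPM in control, 24.0, 20.4, 19.0 and 22.9 CPM in NA10hd and 24.0, 23.3 and 17.7 CPM in NV HSC. The lowest mutant library was NV replicate 3 and the highest control library was replicate 1. The log2 fold change against control was 0.98 (SE 0.31) in NA10hd, which missed the threshold (edgeR adjusted p = 0.2816), and 0.98 (SE 0.26) in NV, which was called (adjusted p = 0.04348). Missing in one and passing in the other did not separate the mutants, since the direct difference between NA10hd and NV was -0.02 on the log2 scale, with a 95% interval from -0.66 to 0.62. The call in NV was lost when any 1 of the 7 libraries was left out, with adjusted p from 0.0507 to 0.1555 and log2 fold changes from 0.90 to 1.12. With NV compared only with control replicates 2 and 3, which like the NV libraries held both Xist and Y-linked counts, the difference was 1.17 (adjusted p = 0.08425).

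What a Flt3l count stands for depends on the annotation. Flt3l (ENSMUSG00000089989, chr7:52386558-52391802, minus strand, NCBIM37) lies on the same strand as Rpl13a, a ribosomal protein gene, and in the GENCODE annotation of that build 2 of the 13 Rpl13a transcripts run through its exons. Of the 3712 exon bases of Flt3l, 1138 (30.7%) are also exon bases of Rpl13a. Of the 696 coding bases of the transcript Flt3l-001, 675 (97.0%) are shared in this way, which leaves 21 at the 3′ end of the coding part. The last 60 coding bases of Flt3l-001 are printed here from the NCBIM37 genome to show where the shared part ends, with the bases that belong to no Rpl13a exon in capitals. The lower-case part lies at chr7:52387598-52387636 and the part in capitals, across an intron, at chr7:52387487-52387507, both on the minus strand.
Flt3l-001 coding end: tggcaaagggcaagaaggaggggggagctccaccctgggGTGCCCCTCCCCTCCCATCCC
By default featureCounts leaves out a read that lies on exons of 2 genes, and neither the setting nor the annotation release was given. If such reads were left out, Flt3l was counted on its other 2574 exon bases, of which 1787 (69.4%) are exonic only in transcripts annotated as retained introns. Divided by that length, Flt3l averaged 4.26 ± 0.816 CPM per kilobase in control (n = 4), 8.37 ± 0.880 in NA10hd (n = 4) and 8.41 ± 1.34 in NV HSC (n = 3). Rpl13a itself averaged 1722 CPM in control, 2622 CPM in NA10hd and 1804 CPM in NV HSC. Its NA10hd libraries all lay above its control libraries (log2 fold change 0.61, edgeR adjusted p = 0.1449), and its NV libraries overlapped them (0.06, 95% interval from -0.12 to 0.25). Its part in the Flt3l values was not tested.

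**Figure D3:**
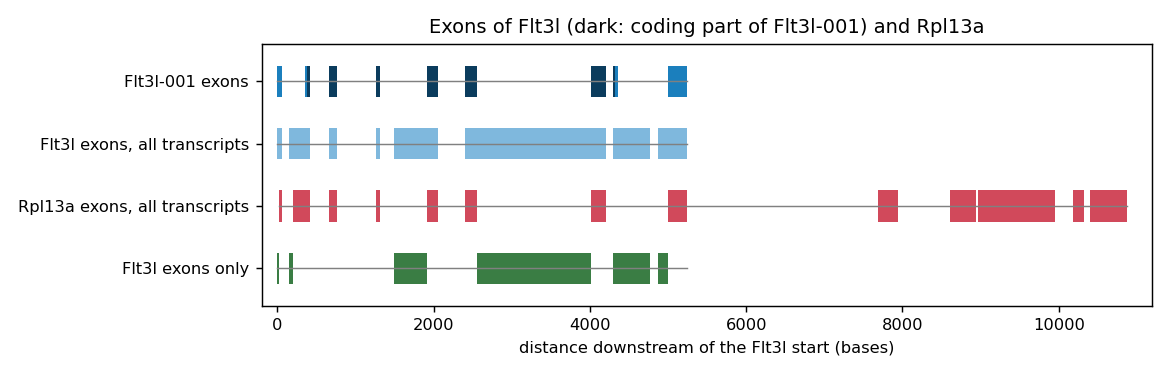
Exons of Flt3l and Rpl13a drawn to scale as distance in bases downstream of the Flt3l start, with the coding part of Flt3l-001 dark and the bases that only Flt3l holds in green. Nearly all the dark blocks, 675 of 696 bases, sit over red Rpl13a blocks, and 2574 bases remain in green.

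Flt3 (chr5:148142317-148212065), the receptor of that ligand, was low and scattered. It was counted at 17.3, 8.34, 2.07 and 14.3 CPM in control, 8.85, 18.7, 16.9 and 11.2 CPM in NA10hd and 10.03, 3.59 and 8.02 CPM in NV HSC. All 3 groups overlapped, and within control the pair of libraries with Y-linked counts alone (replicates 1 and 4) lay above the pair with both. No comparison passed the test, with log2 fold changes of 0.43 (95% interval from -0.75 to 1.61) for NA10hd against control, -0.53 (from -1.81 to 0.75) for NV against control and 0.95 (from -0.16 to 2.06) for NA10hd against NV. Among libraries alike in Xist and Y-linked counts the first 2 of these turned to -0.08 and 0.47, and these intervals are too wide to show whether Flt3 differed.

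Kit (chr5:75970941-76052747), whose product was used in the gate, gave the narrowest intervals of the 9 genes. Its levels were 349.6, 309, 243.7 and 355.2 CPM in control, 243.9, 290.5, 466.9 and 245.6 CPM in NA10hd and 306.1, 286.5 and 284.1 CPM in NV HSC. NA10hd replicate 3 was the highest of all 11 libraries, and the groups overlapped. The log2 fold change was -0.01 (95% interval from -0.47 to 0.46) in NA10hd and -0.11 (from -0.40 to 0.18) in NV against control, and 0.09 (from -0.41 to 0.59) between the mutants. The NA10hd value changed sign in 5 of 8 fits that left out 1 library, between -0.27 and 0.10.

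Cxcr4 (chr1:130484776-130488870), the receptor for Cxcl12, varied more relative to its mean within control and within NA10hd HSC than any other member. The control libraries held 11.6, 0.379, 1.91 and 11.2 CPM, the second of them from 4 counts. NA10hd libraries held 25.2, 14.5, 6.13 and 6.25 CPM and NV libraries 3.90, 4.74 and 1.93 CPM. In control the low libraries were the 2 that held both Xist and Y-linked counts, and the high libraries the 2 with Y-linked counts alone. All NA10hd libraries lay above all NV libraries, by 1.87 on the log2 scale (95% interval from 0.43 to 3.30), which edgeR did not call (adjusted p = 0.1328) and DESeq2 did (1.89, adjusted p = 0.02972). Against control the differences were 1.07 (from -0.68 to 2.83) in NA10hd and -0.80 (from -2.66 to 1.06) in NV, and the latter turned to 1.60 (adjusted p = 0.4274) against the 2 control libraries of the same mix. With all libraries kept it turned to 0.58 with limma-voom, and it stayed negative, from -1.21 to -0.33, without any 1 library. The part of the sex mix was not tested beyond these values.

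Csf2rb, the common beta chain that signals for GM-CSF, interleukin 3 and interleukin 5, showed the largest called difference of the 9 genes. It was counted at 25.6, 14.9, 28.5 and 31.1 CPM in control, 25.7, 56.3, 57.5 and 47.4 CPM in NA10hd and 18.0, 11.4 and 18.2 CPM in NV HSC. Of the NA10hd libraries 3 lay above all control libraries and replicate 1 lay among them, while every NV library lay below every NA10hd library. Between NA10hd and NV the log2 fold change was 1.56 (SE 0.35, edgeR adjusted p = 0.0273), a 2.95-fold difference. Against control it was 0.91 (SE 0.31, adjusted p = 0.2964) in NA10hd and -0.66 (SE 0.29, adjusted p = 0.2334) in NV, neither of them called. The call between the mutants was lost without NA10hd replicate 3 (adjusted p = 0.05851) or without NV replicate 1, 2 or 3 (0.08709, 0.1537 and 0.1109), at log2 fold changes of 1.36 to 1.66.

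Csf2rb (ENSMUSG00000071713, chr15:78156420-78184277, plus strand, NCBIM37) has a close paralog beside it, Csf2rb2 (chr15:78112947-78136052, minus strand), which encodes the beta chain used for interleukin 3 alone. Their coding sequences of 2691 and 2637 bases were identical at 2505 of 2631 aligned bases (95.2%). Of all stretches of 50 coding bases of Csf2rb, 687 of 2642 (26.0%) occur without a mismatch in Csf2rb2, and of all stretches of 75 bases 413 of 2617 (15.8%). The stretches of 90 coding bases with the fewest and the most mismatches are printed to show how far reads can tell the genes apart, with mismatched bases in capitals. The first, at coding bases 928 to 1017 of both genes (chr15:78172088-78172177 in Csf2rb and chr15:78121993-78122082 in Csf2rb2), held 0 mismatches.
Csf2rb and Csf2rb2: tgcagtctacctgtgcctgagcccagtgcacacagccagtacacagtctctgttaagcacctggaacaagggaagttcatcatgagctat
The second, at coding bases 308 to 397 of Csf2rb (chr15:78169327-78169416) and 311 to 400 of Csf2rb2 (chr15:78124775-78124864), held 16.
Csf2rb: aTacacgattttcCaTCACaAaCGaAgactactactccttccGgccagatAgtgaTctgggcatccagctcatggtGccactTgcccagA
Csf2rb2: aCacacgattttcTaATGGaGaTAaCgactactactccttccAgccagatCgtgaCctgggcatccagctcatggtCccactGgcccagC
The handling of reads that fit both genes was not given, so the division of counts between them is uncertain. Csf2rb2 held 24.3, 22.3, 17.8 and 31.6 CPM in control, 24.6, 50.7, 46.7 and 35.2 CPM in NA10hd and 29.8, 18.4 and 21.8 CPM in NV HSC. Its mean was likewise highest in NA10hd, with NA10hd replicate 1 again at the control level, and its log2 fold change between NA10hd and NV was 0.75 (SE 0.32, edgeR adjusted p = 0.2234). With both genes counted as 1, the difference between NA10hd and NV was 1.13 (adjusted p = 0.04895), and those against control were 0.82 (0.279) in NA10hd and -0.33 (0.4777) in NV.

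Csf2ra (chr19:61300305-61304321), which binds GM-CSF and pairs with Csf2rb, held 16.4, 26.4, 26.7 and 21.8 CPM in control, 37.2, 24.3, 41.0 and 50.1 CPM in NA10hd and 26.3, 30.0 and 27.0 CPM in NV HSC. NA10hd replicate 2, one of the libraries high in Csf2rb, was the only one of its group within the control range. The log2 fold change against control was 0.74 (SE 0.28) in NA10hd, not called after adjustment (edgeR adjusted p = 0.3381), and 0.27 (95% interval from -0.21 to 0.75) in NV.

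Csf3r (chr4:125701794-125722219), the G-CSF receptor, had its lowest libraries in NA10hd HSC. Control libraries held 37.4, 56.8, 61.8 and 44.3 CPM, NA10hd libraries 49.9, 18.9, 29.1 and 28.8 CPM and NV libraries 65.7, 56.8 and 47.0 CPM. Of the NA10hd libraries, 3 lay below all others and replicate 1 lay among the control and NV values. Within control the libraries with Y-linked counts alone (37.4 and 44.3 CPM) lay below those with both (56.8 and 61.8 CPM), and with Y-linked-only libraries in both groups the difference of NA10hd from control was -0.33 (edgeR adjusted p = 1). The log2 fold change was -0.66 (SE 0.29, edgeR adjusted p = 0.3911) for NA10hd against control, 0.16 (95% interval from -0.28 to 0.60) for NV against control and -0.85 (SE 0.31, adjusted p = 0.1512) for NA10hd against NV. The last of these passed the threshold without NA10hd replicate 1, at -1.14 (adjusted p = 0.03953), and in no other fit that left out 1 library.

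Il6st (ENSMUSG00000021756, chr13:113265216-113297068, plus strand), which encodes gp130, fell in NV HSC. It was counted at 38.6, 33.0, 53.4 and 43.98 CPM in control, 42.3, 48.0, 37.1 and 56.4 CPM in NA10hd and 25.7, 14.5 and 20.6 CPM in NV HSC. Each NV library lay below all 8 others, while the NA10hd and control libraries overlapped. The log2 fold change was -1.07 (SE 0.25, edgeR adjusted p = 0.0249) for NV against control and 1.17 (SE 0.29, adjusted p = 0.04072) for NA10hd against NV, and 0.12 (95% interval from -0.36 to 0.61) for NA10hd against control. The call in NV against control was lost without NV replicate 2 (adjusted p = 0.1092), NV replicate 3 (0.09458), control replicate 3 (0.05046) or control replicate 4 (0.0603). That between the mutants was lost without NA10hd replicate 2 (0.06487), NA10hd replicate 4 (0.05859) or NV replicate 1, 2 or 3 (0.07897, 0.1895 and 0.1813). Against control replicates 2 and 3 alone, of the same sex mix, NV HSC differed by -1.10 (adjusted p = 0.108). Markers moved with this gene: the summed level of 4 endothelial markers was 35.8 to 56.7 CPM in NV against 91.5 to 123 CPM in control and 96.2 to 172 CPM in NA10hd HSC, with the defining markers Cdh5 and Flt1 at 0 in NV and at means of at most 1.495 CPM elsewhere, so that Emcn and Kdr carried the sum. The 8 HSC markers summed to 1609 to 2047 CPM in NV, 1905 to 2399 CPM in control and 2222 to 2659 CPM in NA10hd HSC. Of these 8, Ly6a rose in NV against control (log2 fold change 0.70, edgeR adjusted p = 0.01262), Procr (-0.72, 0.008715) and Fgd5 (-1.13, 0.02844) fell, and the others were not called. Among 4 megakaryocyte markers, Pf4 (2.91, adjusted p = 9.106e-04) and Itga2b (1.30, 0.006835) rose in NV, Vwf fell (-0.83, 0.007915) and Gp1bb was not called (1.46, 0.2151). They summed to 255.4 to 560.3 CPM in NV, 285.2 to 318.4 CPM in control and 224.2 to 371 CPM in NA10hd HSC. The 5 multipotent progenitor markers summed to 296.3 to 383.2 CPM in NV, 242.4 to 295.4 CPM in control and 241.9 to 323.1 CPM in NA10hd HSC. None of those tested was called in NV against control. The part of all these markers in the Il6st and Flt3l results was not tested.

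Tgfbr1 (chr4:47366094-47427803), the signalling receptor for TGF-beta, showed no called difference. It was counted at 58.8, 43.2, 46.7 and 47.6 CPM in control, 41.5, 48.5, 34.9 and 25.7 CPM in NA10hd and 53.3, 39.3 and 36.5 CPM in NV HSC. The groups overlapped, with the single Xist-only library, NA10hd replicate 4, the lowest. Log2 fold changes were -0.37 (95% interval from -0.88 to 0.13) in NA10hd and -0.19 (from -0.60 to 0.22) in NV against control, and -0.20 (from -0.80 to 0.41) between the mutants.

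**Figure D4:**
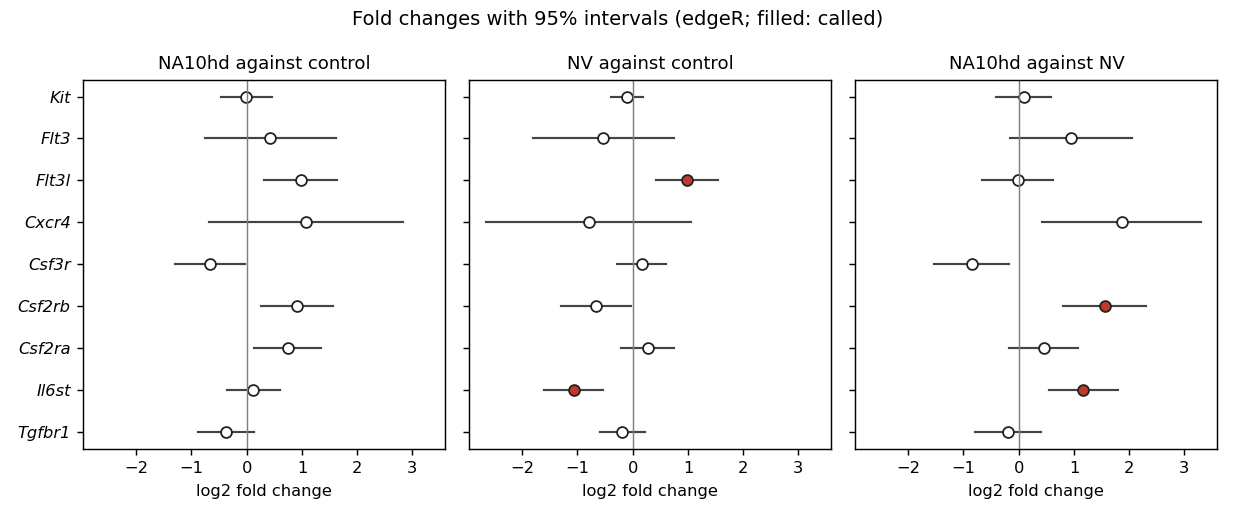
Log2 fold change of each gene with its 95% interval in the 3 comparisons, filled where called by edgeR. The filled points are Flt3l at 0.98 and Il6st at -1.07 for NV against control, and Csf2rb at 1.56 and Il6st at 1.17 for NA10hd against NV, and the Cxcr4 intervals are the widest.

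None of the 4 calls held in every fit. With 1 of the 7 libraries left out in turn, Flt3l in NV was called in 0 of 7 fits and Il6st in NV in 3. Between the mutants, Csf2rb was called in 3 and Il6st in 2. Over all genes, these fits called 263 to 643 genes for NV against control and 146 to 771 between the mutants. With all libraries the numbers were 641 and 685. DESeq2, limma-voom, other size factors and a stricter filter on low counts kept all 4 of them, with directions unchanged. A single fit of all 3 groups lost both NV calls (adjusted p = 0.1183 for Flt3l and 0.07241 for Il6st). So did the comparison with control replicates 2 and 3 alone, and Flt3l was also lost with no filter on low counts (0.05288). These fits called 155, 301 and 686 of all genes, in place of 641. The replicate block, described further below, lost Flt3l in NV and both calls between the mutants.

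**Figure D5:**
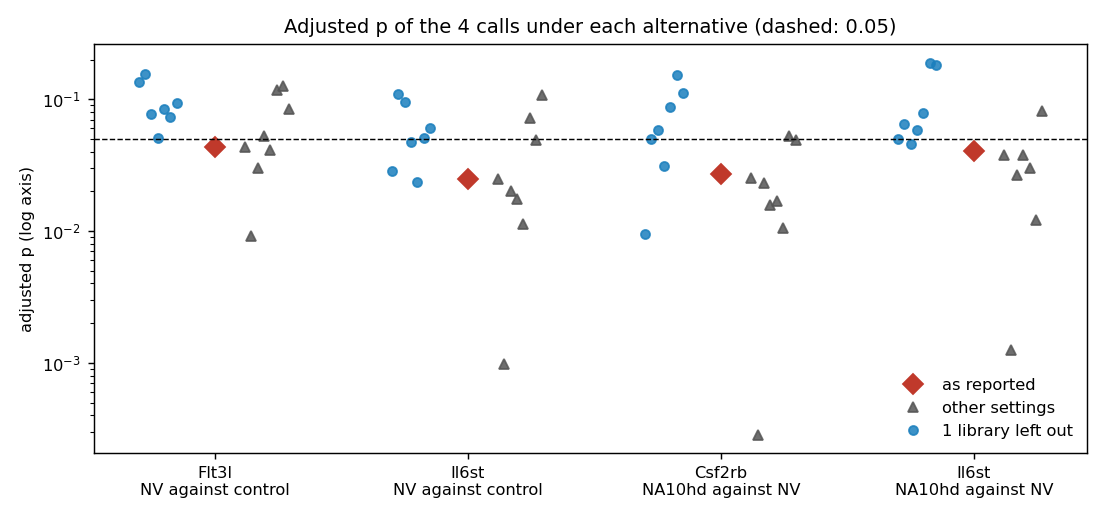
Adjusted p (log axis) of the 4 calls as reported (diamond), with 1 library left out (circles) and under other settings (triangles), with the threshold of 0.05 dashed. All 7 circles of Flt3l lie above the line, from 0.0507 to 0.1555.

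The ligands, partner chains, relatives and downstream proteins of these receptors were read from lists of 119 genes. Of the 16 receptor ligands, only 5 to 6 passed the filter in a comparison and 0 were called. The shares of all genes called were 0.00766% for NA10hd against control, 4.76% for NV against control and 5.09% between the mutants. For 5 of the ligands (Csf3, Csf2, Il3, Il5 and Thpo, named after their values were seen) no count was found in any of the 11 libraries. That allows up to 0.210 to 0.549 CPM per library by counting error alone. Among the 14 partner chains and coreceptors, 8 were tested and 0 were called against control in either mutant, beside 0.00766% of all genes in NA10hd and 4.76% in NV. Between NA10hd and NV HSC, 1 of the 8 was called, beside 5.09% of all genes, namely Il11ra1, the interleukin 11 receptor that pairs with gp130. It averaged 129.1 ± 18.6 CPM in control (n = 4), 220.8 ± 35.9 CPM in NA10hd (n = 4) and 127.1 ± 9.45 CPM in NV HSC (n = 3). NA10hd exceeded NV by 0.79 on the log2 scale (edgeR adjusted p = 0.02904). Against control, Il11ra1 differed by 0.78 in NA10hd (not called) and -0.03 in NV, whereas Il6st differed by 0.12 and -1.07. The mouse genome holds a near-identical copy of Il11ra1, so its counts are uncertain.

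Between NA10hd and control HSC, 0 of the 95 list genes tested were called by edgeR (beside 0.00766% of all genes) and by limma-voom (beside 2 of 13060 genes) and 1 by DESeq2 (beside 238 of 12378), with 13 of the 95 at an unadjusted p under 0.05, beside 11.9% of all genes. Between NV and control HSC, 9 of 97 (9.28%) were called, 3 upward and 6 downward, beside 4.76% of all genes. Of the 19 receptor brakes and sheddases tested, 2 were called, both downward. Socs2 and Cish are known as Stat5-induced brakes on cytokine receptors, and they fell, Socs2 from 105.7 ± 18.8 CPM (n = 4) to 37.8 ± 8.30 CPM (n = 3), by a log2 fold change of -1.50 (edgeR adjusted p = 0.001337), and Cish from 242.2 ± 58.2 to 102.9 ± 17.6 CPM (-1.24, adjusted p = 0.002989). Both genes were called in NV without any 1 of the 7 libraries, and NA10hd HSC held 138.4 ± 34.8 and 189.4 ± 47.7 CPM of them.

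Of the other cytokine receptors, 2 of 24 tested (8.33%) were called in NV, beside 4.76% of all genes. Epor, which binds erythropoietin, rose from 16.6 ± 4.03 to 43.0 ± 13.6 CPM (1.37, edgeR adjusted p = 0.01051), and the prostaglandin receptor Ptger4 fell from 54.9 ± 6.57 to 27.1 ± 5.28 CPM (-1.02, adjusted p = 0.009673). Without 1 of the 7 libraries, the call of Epor held in 6 fits and that of Ptger4 in 5. Summed erythroid markers moved with Epor, at 10.7 to 24.0 CPM in NV, 2.87 to 7.96 CPM in control and at most 3.28 CPM in NA10hd HSC, and their part was not tested. An antisense gene, Gm15937, covers 15.3% of the exon bases of Ptger4, and without a stated strand setting its reads cannot be told apart from those of Ptger4. Notch2 and Ptger4 were also higher in NA10hd than in NV, by 1.15 (adjusted p = 0.04192) and 1.38 (0.008159). With 1 of the 7 libraries removed, Notch2 was called in 1 fit and Ptger4 in 5.

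Of 16 niche adhesion molecules tested, 3 were called in NV against control (1 upward, 2 downward), beside 4.76% of all genes, and 0 in NA10hd against control, beside 0.00766%. Between the mutants 3 of 17 were called, beside 5.09%. In NV HSC the integrin chain Itgb2 rose from 19.0 ± 3.88 to 66.0 ± 11.4 CPM (1.79, edgeR adjusted p = 9.476e-04). Alcam fell from 71.7 ± 7.08 to 37.6 ± 1.01 CPM (-0.94, 0.0047) and Jam3 from 68.5 ± 4.23 to 41.4 ± 12.2 CPM (-0.73, 0.04842), the latter called in only 1 of 7 fits with a library removed. NA10hd HSC held 31.4 ± 6.99 CPM of Itgb2 and 108.6 ± 58.1 CPM of Alcam, and both differed from NV HSC (-1.07, adjusted p = 0.03323, and 1.52, 0.02741). Cd9, a tetraspanin, was lower in NA10hd than in NV (-0.78, 0.03777). The regulatory chain of PI3-kinase, Pik3r1, fell in NV from 185.2 ± 35.7 to 93.4 ± 16.3 CPM (-0.99, 0.00716) and was higher in NA10hd than in NV by 1.22 (0.02672). With 1 of 7 libraries removed, the calls between the mutants held in 2 fits for Itgb2, 2 for Cd9, 3 for Pik3r1, 4 for Alcam and 4 for Il11ra1. In all, 10 of 97 list genes (10.3%) were called between NA10hd and NV HSC, 7 higher and 3 lower in NA10hd, beside 5.09% of all genes. The count was 3, 2 and 2 without NV replicate 1, 2 or 3, in fits that called 229, 153 and 146 of all genes in place of 685, and Socs2 (1.87, 0.002564) was called whichever library was left out. Over all lists the median log2 fold change was 0.19 for NA10hd against control, 0.09 for NV against control and 0.11 for NA10hd against NV.

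Some genes elsewhere in the genome followed the members closely over the 11 libraries. Among 14013 genes, the log2 CPM most like that of Csf2ra was Unc13d (Pearson r = 0.98), that of Csf2rb Fis1 (0.97), that of Il6st the pseudogene Rpl23a-ps3 and Myof (both 0.96) and that of Csf3r Prpf4 (0.95). For Flt3l these were Pafah2 (0.95) and Sva (0.94), and once group means were removed the correlations were 0.85 and 0.60. Flt3 was most like Dusp22 (0.93), Kit like 2810055G20Rik (0.92), Cxcr4 like Nfia (0.92) and Tgfbr1 like Sap130 (0.91). These are the highest of 14013 values for each gene over libraries that differ together in genotype, sex mix and depth, and they are given as descriptions.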

How the data were processed

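RNA-Seq was made from 11 libraries of sorted HSC. The authors amplified cDNA from 1000-cell aliquots, prepared Nextera XT libraries, and used HISAT2 to align the reads to NCBIM37 and featureCounts to count reads on each gene. The deposited values are raw counts without normalization. Tool versions, the annotation release, the strand setting and the treatment of reads on several genes or places are not given in the sources used here.

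Symbols, exons and overlaps came from GENCODE vM1 on NCBIM37, which named 37205 of the 37991 gene IDs, and 786 had no name there. Each comparison was fitted on its own libraries, grouped by labelled genotype, with edgeR 4.0.16 in R 4.3.3 (TMM factors, the default filter on low counts, quasi-likelihood test). Intervals are 95% intervals of the fit. Alternatives used DESeq2 1.42.0, limma-voom (limma 3.58.1), other size factors, filters and samples. The calling steps were also run on simulated counts with known changes, as a check of the code. Its outcome is not given here and does not bear on the calls of single genes. Coding sequences were aligned with Biopython 1.88, and figures were drawn with matplotlib 3.10.9. Totals ranged from 5464815 to 14283008 counts, and limits from counts of 0 were taken as 3 counts of a library's total and cover counting error only, since reads carried no molecular identifiers. Genes named beyond the 9 members are those of the 6 pathway lists that were called (some are not reported here), Csf2rb2 as the paralog of Csf2rb, the genes most correlated with each member, and checks of genotype, sex and cell type. The members and lists were chosen with earlier results of these data known. No protein sequences were used here.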

Additional observations from a re-analysis of the deposited data

Results flagged for a closer look

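The mutants were compared directly, without the shared controls. By edgeR's quasi-likelihood test, 2 of the 9 members and 10 of the 97 list genes tested were called, beside 5.09% of 13461 genes. Of these called members and list genes, 10 are reported here. Among the 8 receptors and Flt3l these were Csf2rb, at a log2 fold change of 1.56, and Il6st, at 1.17, both higher in NA10hd. From the pathway lists, Socs2 (1.87), Alcam (1.52), Ptger4 (1.38), Pik3r1 (1.22), Notch2 (1.15) and Il11ra1 (0.79) were higher in NA10hd, while Itgb2 (-1.07) and Cd9 (-0.78) were higher in NV. The list genes are named because they were called. With 1 of the 7 libraries left out, the reported calls held in 1 fit (Notch2) to all 7 (Socs2). In this comparison genotype and the mix of Xist and Y-linked counts cannot be told apart. No library stood apart from its group by Dixon's criterion in the 44 groups of 4 libraries checked.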

How the results depend on the processing

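For single genes, 577 of 681 alternative values kept their direction and their side of the threshold. Another 82 kept the direction but were no longer past it, 3 newly passed it and 19 changed sign. Many of the 681 belong to differences that had no call to lose. In NV against control, 4 of 15 values kept the call for Flt3l and 9 of 15 for Il6st. Between the mutants, 10 of 15 kept it for Csf2rb and 8 of 14 for Il6st. The same replicate numbers did not pair libraries, since correlations of same-numbered deviations from group means ranged from -0.09 to 0.03. The replicate block left 1 member called for NV against control (Flt3l lost at adjusted p = 0.1264) and 0 for NA10hd against NV (Csf2rb at 0.0528 and Il6st at 0.08114), and 5 list genes for the latter. It called 432 and 581 of all genes in these comparisons, where the main fits called 641 and 685. DESeq2 called 1 member and 1 list gene for NA10hd against control and 18 list genes for NA10hd against NV, where the edgeR counts were 0, 0 and 10. Over all genes DESeq2 called 238 and 1480 in these comparisons and edgeR 1 and 685. For NV against control, 1 member was called with no filter, 0 with a single fit of all 3 groups and 0 with libraries of one Xist and Y-linked mix. These fits called 686, 155 and 301 of all genes, in place of 641. Leaving out 1 library gave 0 to 1 member for NV against control, 0 to 3 for NA10hd against NV, and 2 to 12 list genes for the latter, with 3, 2 and 2 when NV replicate 1, 2 or 3 was missing. Over all genes such fits called 263 to 643 genes for NV against control and 146 to 771 for NA10hd against NV. Signs changed for Kit in NA10hd (0.03 to 0.10 without NA10hd replicate 1, 2 or 4 or control replicate 1 or 4, over a range of -0.27 to 0.10) and between the mutants without NA10hd replicate 3 (-0.18, over a range of -0.18 to 0.20). They changed in libraries of one mix for Flt3 in NA10hd (-0.08) and, in NV, for Kit (0.08), Flt3 (0.47), Cxcr4 (1.60) and Csf3r (-0.07). Cxcr4 in NV turned to 0.58 with limma-voom and 0.40 with the block. Flt3l between the mutants, near 0 throughout, was 0.01 with DESeq2's size factors, 0.00 with DESeq2 and 0.02 to 0.06 without NA10hd replicate 2 or 3 or NV replicate 1 or 2, over a range of -0.14 to 0.06. Smaller fits hold fewer libraries, and apart from that the cause was not tested. Cxcr4 had no value with 10 counts in every library where control was compared, and no fit of one mix could be made for NA10hd against NV.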
